A study of Rattus norvegicus with 13 samples.

Results

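The genes of cholesterol synthesis, uptake and efflux were followed in the hypothalamus of male Sprague-Dawley rats on 3 diets. The set was a list of 30 gene symbols in pathway order. A gene entered through the array row that carried its symbol alone, or through the row of highest mean where several did. Of the 30 genes, 29 were found among 22093 genes with a single symbol, and all 29 passed the signal floor and were among the 16033 genes tested. Hmgcs1, the cytosolic enzyme that makes HMG-CoA, was not analysed here. Lss was the only member with 2 rows. The gene IDs of all 29 matched the RefSeq annotation of assembly GRCr8 under the same symbol.

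The HF-SD group (5 arrays) ate a high-fat diet in which safflower oil supplied 35% of energy, and the HF-FD group (4 arrays) ate a high-fat diet in which flaxseed oil supplied 35%. The LF-CD group (4 arrays) ate a low-fat control diet with 16% of energy from soybean oil. All rats arrived at 6 to 7 weeks of age, had free access to their diet over 2 months and reached 14 to 15 weeks, so that the high-fat groups differed from the control in both the amount and the kind of oil, and from each other in the kind alone. The labels did not say whether an array held RNA of a single rat, so p-values measure the spread between arrays, which may be in part technical, and in a bulk dissection fewer cells of a type and less RNA per cell cannot be told apart. Below, the groups are called safflower, flaxseed and low-fat.

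The brain makes nearly all of its cholesterol itself, because lipoproteins of the blood do not cross the blood-brain barrier. Synthesis runs through the mevalonate pathway to squalene, through ring closure to lanosterol, and then through a series of demethylations, reductions and isomerisations to cholesterol. When sterol in the endoplasmic reticulum is low, Scap carries SREBP2, the product of Srebf2, to the Golgi for cleavage, and the released factor raises transcription of most of these enzymes. Astrocytes and oligodendrocytes are the main producers in the adult brain. Surplus cholesterol is esterified, exported on apolipoprotein E particles, or hydroxylated in neurons and lost to the blood.

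The deposited values were log2 signals whose spread differed between the diets. Across the tested genes the distance between the quartiles was 1.51 to 1.68 in safflower arrays, 1.39 to 1.52 in flaxseed arrays and 1.33 to 1.39 in low-fat arrays. The arrays' positive control features also differed by diet. Their median log2 signal was 9.18 to 9.41 in safflower, 9.14 to 9.27 in flaxseed and 8.90 to 9.09 in low-fat. The part of a technical shift in the diet differences was not tested. The safflower-to-low-fat change ran with signal. With the tested genes cut into 10 equal bins by mean signal, the median change was -0.21 in bin 1, the dimmest, and 0.26 in bin 10, and quantile normalization turned these into -0.02 and 0.03. The sterol genes were mostly bright, with 25 of 29 in bins 6 to 10 and 8 in bin 10. For this reason the safflower-to-low-fat change of each of the 29 genes is given with deposited values and again after quantile normalization. Array LF-CD 3 stood apart, with a skeletal muscle marker mean of 9.64 against 7.70 to 7.96 on the other low-fat arrays, and it was the lowest low-fat array for 24 of the 29 sterol genes and for 62.8% of all genes tested. Of 15 measured hypothalamic markers, all lay above the signal floor.

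Against low-fat, 14 of the 29 genes were higher and 0 lower in safflower hypothalamus with deposited values (limma, Benjamini-Hochberg adjusted p under 0.05 over all genes tested). They were Idi1, Fdft1, Sqle, Lss, Cyp51, Msmo1, Nsdhl, Ebp, Sc5d, Insig1, Npc1, Abca1, Abcg1 and Soat1. Over all genes tested, 22.9% were higher and 16.9% lower, and 48.3% of the sterol genes were higher. After quantile normalization 3 of the 29 were higher (Msmo1, Nsdhl and Hsd17b7) and 0 lower, where 10.1% of all genes were higher and 4.37% lower. Msmo1 and Nsdhl passed with both scalings, which is 6.90% of the sterol genes against 7.14% of all genes. The count after quantile normalization and the count with both scalings were thus near the background, and the 14 calls depended on the scaling of the deposited values.

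The changes were small. With deposited values they ran from -0.09 for Mvd to 0.43 for Msmo1, and their median was 0.24 against 0.07 for all genes. Of the 29, 26 were positive, where 60.8% of all genes were. After quantile normalization the median was 0.09 against 0.04 for all genes, and 21 of 29 changes were positive against 58.5% of all genes. Set against the genes of its own signal bin, the deposited change was above the bin median for 21 of the 29. The share of all genes called higher with deposited values was 2.62% in bin 1 and 58.7% in bin 10, and in bin 10 it was 4 of the 8 sterol genes (Fdft1, Cyp51, Msmo1 and Sc5d).

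Single arrays moved the count. Without LF-CD 3, 7 of the 29 were higher with deposited values, where 18.9% of all genes were. After quantile normalization without that array 0 were higher and 1, Mvd, lower, where 10.9% and 8.44% of all genes were. The count with deposited values was 7 also without HF-SD 1 (16.1% of all genes) or without HF-SD 5 (15.3%), and 8 without LF-CD 4 (21.7%). The 7 genes Fdft1, Sqle, Lss, Cyp51, Msmo1, Sc5d and Insig1 passed with deposited values whichever single array was left out.

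**Figure D1:**
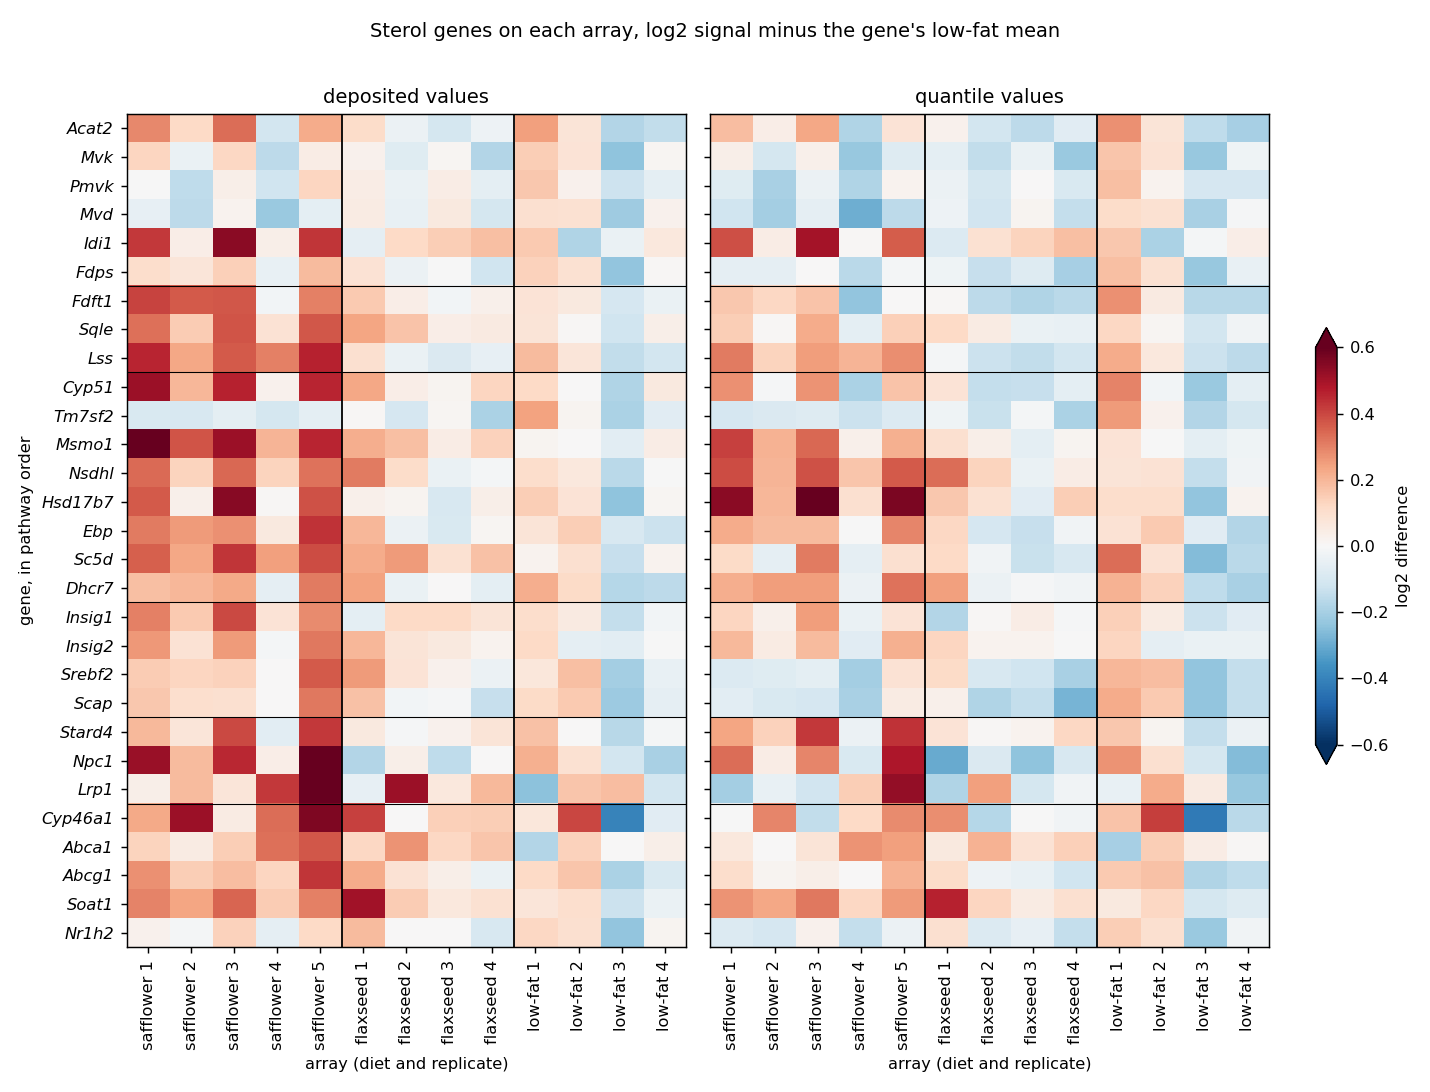
Log2 signal of each of the 29 genes (rows, in pathway order, horizontal lines between role groups) on each of the 13 arrays (columns), minus that gene's mean over the 4 low-fat arrays, with deposited values on the left and quantile-normalized values on the right. Red is higher and blue lower, and colours stop at differences of 0.6. Safflower arrays 1, 3 and 5 are the reddest columns with deposited values, the rows from Mvk to Mvd stay pale, and the right panel is paler for most genes.

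The mevalonate arm, which builds the isoprene units, moved little. Of its 6 measured genes 1, Idi1, was higher in safflower than in low-fat, and the median change of the 6 was 0.06 with deposited values and -0.06 after quantile normalization. Idi1 encodes the isomerase that interconverts the pair of isoprene building blocks. Its log2 signal was 8.58, 8.20, 8.70, 8.19 and 8.59 on the safflower arrays, 8.10, 8.28, 8.31 and 8.34 on the flaxseed arrays, and 8.32, 7.98, 8.12 and 8.22 on the low-fat arrays. Safflower arrays 1, 3 and 5 were above all others, while arrays 2 and 4 lay within the range of the low-fat arrays. The change of 0.29 ± 0.11 (SE) had an adjusted p of 0.0438 in limma, and 0.111 after quantile normalization (0.26), and it passed in 4 of 13 fits that left out an array.

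The other 5 genes of the mevalonate arm did not pass. Acat2, the acetyl-CoA thiolase that opens the pathway, had a change of 0.17, and 0.07 after quantile normalization. Mvk and Pmvk, the kinases that phosphorylate mevalonate in turn, had changes of 0.02 and -0.02, and -0.07 and -0.09 after quantile normalization. Mvd, the decarboxylase that follows them, had -0.09, with 8.52, 8.42, 8.60, 8.35 and 8.51 on the safflower arrays, 8.62, 8.53, 8.63 and 8.47 on the flaxseed arrays, and 8.67, 8.66, 8.36 and 8.60 on the low-fat arrays. The groups of Mvd overlapped, and its per-array values were added after they were seen. After quantile normalization its change was -0.17 (adjusted p = 0.126 in limma). Fdps, the synthase of farnesyl diphosphate, had a change of 0.09, and -0.06 after quantile normalization.

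All 3 genes of squalene synthesis and ring closure were higher in safflower with deposited values, and none passed after quantile normalization. Fdft1, squalene synthase, had a change of 0.29 ± 0.08, and 0.05 ± 0.10 after quantile normalization. Sqle, squalene epoxidase and a known control point of the pathway, had 0.26 ± 0.07, and 0.09 ± 0.07 after quantile normalization. Lss, the cyclase that closes the rings to lanosterol, had the smallest p of the group.

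Lss had log2 signals of 9.26, 9.04, 9.17, 9.11 and 9.26 on the safflower arrays, 8.90, 8.77, 8.72 and 8.75 on the flaxseed arrays, and 8.99, 8.88, 8.65 and 8.69 on the low-fat arrays. Every safflower array was above every array of the other diets. The safflower-to-low-fat change was 0.36 ± 0.08, a 1.29-fold difference (adjusted p = 0.00479 in limma), and after quantile normalization it was 0.23 ± 0.07 with an adjusted p of 0.0511. The second row of Lss gave 0.28 in the same direction. After quantile normalization the safflower values of Lss were 9.19, 9.01, 9.12, 9.08 and 9.15, against 9.10, 8.94, 8.75 and 8.72 in low-fat, and the groups overlapped because of LF-CD 1.

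The late steps, from lanosterol to cholesterol, held both genes that passed with both scalings. Of the 8 genes, 5 were higher in safflower with deposited values (Cyp51, Msmo1, Nsdhl, Ebp and Sc5d) and 3 after quantile normalization (Msmo1, Nsdhl and Hsd17b7), and the median changes were 0.27 and 0.19. Msmo1, Nsdhl and Hsd17b7 encode the enzymes that together remove the methyl groups at carbon 4 of the sterol ring: Msmo1 oxidises the methyl group, Nsdhl removes the resulting carboxyl group and Hsd17b7 reduces the ketone that is left. That these 3 were of the same step was seen after their values.

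Msmo1 had log2 signals of 10.16, 9.92, 10.06, 9.75 and 9.9998 on the safflower arrays, 9.76, 9.73, 9.59 and 9.68 on the flaxseed arrays, and 9.56, 9.55, 9.48 and 9.59 on the low-fat arrays. Each safflower array was above each low-fat array, and HF-SD 4 alone lay within the flaxseed range. The change of 0.43 ± 0.07, 1.35-fold, was the largest of the 29 (adjusted p = 0.00379 in limma). After quantile normalization the values were 10.06, 9.86, 10.002, 9.68 and 9.87 in safflower, against 9.74, 9.65, 9.60 and 9.63 in low-fat, and HF-SD 4 then lay below LF-CD 1. The change was then 0.24 ± 0.07 (adjusted p = 0.0381 in limma), and it passed in 3 of 13 fits that left out an array.

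Nsdhl had log2 signals of 8.08, 7.87, 8.08, 7.87 and 8.06 on the safflower arrays, 8.05, 7.85, 7.70 and 7.73 on the flaxseed arrays, and 7.84, 7.80, 7.57 and 7.73 on the low-fat arrays. Safflower and low-fat arrays did not overlap with deposited values, and HF-FD 1 reached the safflower range. The change was 0.25 ± 0.08 (adjusted p = 0.0267 in limma). After quantile normalization the values were 8.09, 7.90, 8.08, 7.86 and 8.06 in safflower, against 7.78, 7.78, 7.56 and 7.67 in low-fat, again without overlap, with a change of 0.30 ± 0.08 (adjusted p = 0.028 in limma). Of the fits that left out an array, 9 of 13 passed with deposited values and 7 of 13 after quantile normalization, and both scalings lost the call without LF-CD 3, HF-SD 1, HF-SD 3 or HF-SD 5.

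Hsd17b7, which lay in signal bin 2, the lowest that held a member, was the only 1 of the 29 whose call appeared through quantile normalization. Its change was 0.27 ± 0.11 with deposited values (adjusted p = 0.0611 in limma) and 0.42 ± 0.12 after it (adjusted p = 0.0319). The deposited values were 7.40, 7.06, 7.58, 7.04 and 7.41 on the safflower arrays, 7.06, 7.05, 6.94 and 7.07 on the flaxseed arrays, and 7.18, 7.11, 6.79 and 7.04 on the low-fat arrays. Safflower arrays 1, 3 and 5 were above the other 10, and arrays 2 and 4 were not. After quantile normalization the call was kept in 6 of 13 fits that left out an array.

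Among the other late genes, Cyp51, the demethylase at carbon 14, had a change of 0.33 ± 0.10, and 0.10 ± 0.11 after quantile normalization. Ebp, the sterol isomerase, had 0.27 ± 0.08, and 0.18 ± 0.08 after it. Sc5d, the desaturase of the penultimate steps, had deposited log2 signals of 10.60, 10.47, 10.67, 10.49 and 10.63 in safflower, 10.46, 10.49, 10.33 and 10.41 in flaxseed, and 10.26, 10.34, 10.10 and 10.26 in low-fat. Its safflower and low-fat arrays did not overlap, and its change of 0.33 ± 0.06 (adjusted p = 0.00404 in limma) became 0.08 ± 0.11 after quantile normalization. Dhcr7, a reductase of the final step, had 0.17, and 0.20 after quantile normalization. Tm7sf2, a reductase that acts just after Cyp51, was the late gene with a negative change, -0.08 and -0.10. The per-array values of Hsd17b7 and Sc5d were added after they were seen.

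The promoters of Msmo1 and Nsdhl are shown because both passed with both scalings, and those of Lss and Ebp were added after the values and matches were seen, for the clearest separation between the oils and for the only sterol element match. The sequences are from RefSeq, assembly GRCr8, read 5′ to 3′ on the gene's strand, from 250 bases before the annotated start to 50 bases after it. Capitals mark matches to CCAAT, to GGGCGG or to CACCCCAC on either strand, and no 2 matches of different motifs overlapped. The windows lie at chr16:29746863-29747162 on the plus strand (Msmo1), chrX:155817110-155817409 on the plus strand (Nsdhl), chr20:12118181-12118480 on the minus strand (Lss) and chrX:16971212-16971511 on the plus strand (Ebp).
Msmo1: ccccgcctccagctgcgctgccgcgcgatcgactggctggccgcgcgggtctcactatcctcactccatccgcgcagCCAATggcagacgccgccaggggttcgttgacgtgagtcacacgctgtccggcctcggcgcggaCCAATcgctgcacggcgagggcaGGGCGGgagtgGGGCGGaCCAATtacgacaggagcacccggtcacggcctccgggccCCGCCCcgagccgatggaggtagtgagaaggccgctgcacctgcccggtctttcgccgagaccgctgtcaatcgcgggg
Nsdhl: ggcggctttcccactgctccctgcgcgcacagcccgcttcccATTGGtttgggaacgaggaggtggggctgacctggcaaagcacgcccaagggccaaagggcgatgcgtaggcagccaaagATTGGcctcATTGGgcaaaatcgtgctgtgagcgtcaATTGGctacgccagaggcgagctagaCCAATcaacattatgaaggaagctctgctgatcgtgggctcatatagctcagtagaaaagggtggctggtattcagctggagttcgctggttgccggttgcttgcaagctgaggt
Lss: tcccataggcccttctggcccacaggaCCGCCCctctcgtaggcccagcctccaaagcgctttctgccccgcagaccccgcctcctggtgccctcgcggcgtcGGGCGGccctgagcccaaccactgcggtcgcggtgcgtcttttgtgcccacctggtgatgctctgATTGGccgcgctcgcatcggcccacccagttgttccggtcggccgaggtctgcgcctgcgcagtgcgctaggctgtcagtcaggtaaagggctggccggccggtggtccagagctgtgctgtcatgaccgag
Ebp: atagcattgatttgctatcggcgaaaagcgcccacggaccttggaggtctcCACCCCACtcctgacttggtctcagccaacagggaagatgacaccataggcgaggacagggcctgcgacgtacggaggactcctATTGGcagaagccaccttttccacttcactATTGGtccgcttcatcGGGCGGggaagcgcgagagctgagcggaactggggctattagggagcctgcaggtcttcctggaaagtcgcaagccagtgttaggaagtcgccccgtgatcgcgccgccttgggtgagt

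Motifs of 5 to 9 letters were searched on both strands in the windows of the 25 listed genes that had one, and in all 33469 windows of the table. CCAAT, the letters bound by NF-Y, was in 18 of the 25 (72.0%) against 37.5% of all windows. GGGCGG, the GC box bound by Sp1, was in 21 (84.0%) against 33.1%, and 15 of the 25 (60.0%) held both against 11.8% of all. The windows compared with were not limited to tested genes and were not matched for signal or base composition. NF-Y and Sp1 are known partners of SREBP2 at sterol promoters. Msmo1 held 3 CCAAT matches and 3 GC boxes, and Nsdhl held 5 CCAAT matches and no GC box. Lss held 1 CCAAT match and 2 GC boxes. The sterol regulatory element TCACNCCAC was in 0 of the 25 windows against 1.12% of all, and its shorter form CACCCCAC was in 1 (Ebp, at base -199 from the start) against 2.70%. AGGTCA, a nuclear receptor half-site, was in 2 (Fdps and Nsdhl) against 16.2%. A match is a description of letters in a window, and windows of 1 gene can overlap. Only exact letters were counted, with any base at N, and variant forms of an element were not searched for. The absence of a match therefore does not show that a window lacks a sterol element.

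**Figure D2:**
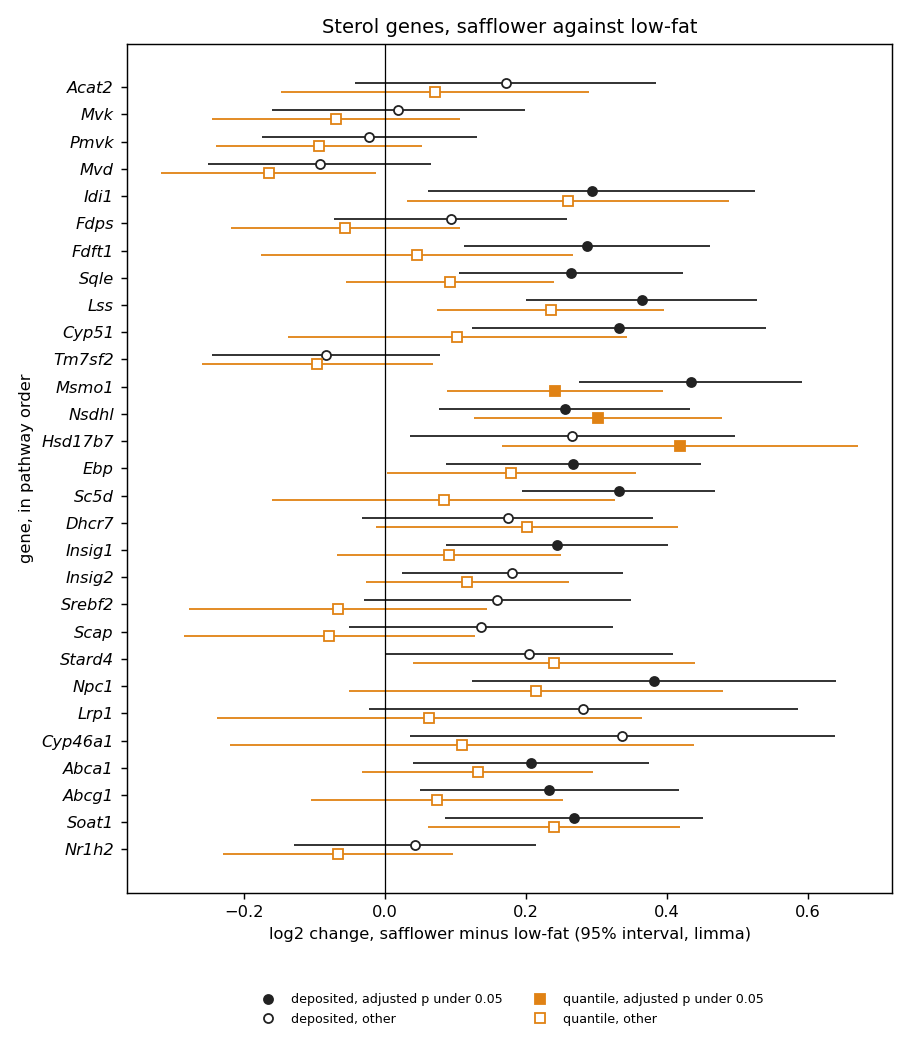
Log2 change of each of the 29 genes, safflower minus low-fat, with its 95% interval from limma, for deposited values (black circles) and quantile-normalized values (orange squares), with genes from the top in pathway order. Filled symbols have an adjusted p under 0.05: 14 are filled with deposited values and 3 after quantile normalization, and the orange symbols lie left of the black ones for most genes but right of them for Nsdhl, Hsd17b7, Dhcr7 and Stard4.

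Of the 4 genes that sense sterol and control SREBP2, 1 was higher in safflower with deposited values and 0 after quantile normalization. Insig1, which holds Scap in the endoplasmic reticulum when sterol is high and is itself a target of SREBP2, had log2 signals of 9.37, 9.22, 9.46, 9.15 and 9.35 on the safflower arrays, 9.01, 9.18, 9.18 and 9.14 on the flaxseed arrays, and 9.17, 9.12, 8.92 and 9.05 on the low-fat arrays. Only HF-SD 4 lay within the low-fat range. The change was 0.24 ± 0.07 (adjusted p = 0.0191 in limma), and 0.09 ± 0.07 after quantile normalization. Insig2, its homologue, had 0.18 and 0.12. Srebf2 itself had 0.16, and -0.07 after quantile normalization, and Scap had 0.14 and -0.08.

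Of the 3 genes of uptake and intracellular transport, Npc1 was higher in safflower with deposited values. Npc1, the membrane protein that releases cholesterol from late endosomes, had log2 signals of 9.71, 9.38, 9.64, 9.24 and 9.90 on the safflower arrays, 9.02, 9.23, 9.04 and 9.20 on the flaxseed arrays, and 9.41, 9.29, 9.08 and 8.998 on the low-fat arrays. Safflower arrays 1, 3 and 5 were above all low-fat arrays. The change was 0.38 ± 0.12 (adjusted p = 0.0238 in limma), lost without LF-CD 3, LF-CD 4, HF-SD 1 or HF-SD 5, and it was 0.21 ± 0.12 after quantile normalization. Stard4, a cytosolic sterol carrier, had 0.20 and 0.24. Lrp1, a neuronal receptor for apolipoprotein E particles, had 0.28, and 0.06 after quantile normalization, and it spread from 10.29 to 10.93 within safflower.

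Of the 5 genes of esterification, efflux and turnover, Soat1, Abca1 and Abcg1 were higher in safflower with deposited values and none passed after quantile normalization. Soat1, the acyltransferase that stores cholesterol as esters, had log2 signals of 8.44, 8.38, 8.49, 8.29 and 8.44 on the safflower arrays, 8.64, 8.29, 8.20 and 8.23 on the flaxseed arrays, and 8.21, 8.24, 8.01 and 8.10 on the low-fat arrays. Safflower and low-fat did not overlap with either scaling, while HF-FD 1 was the highest of the 13. After quantile normalization the separation was a near-tie, with 8.2739 on HF-SD 4 and 8.2730 on LF-CD 2. The change was 0.27 ± 0.09 (adjusted p = 0.0248 in limma), and 0.24 ± 0.08 after quantile normalization (adjusted p = 0.067), and with deposited values it passed in 8 of 13 fits that left out an array.

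Abca1 and Abcg1, the transporters that load cholesterol on lipoproteins, had changes of 0.21 ± 0.08 and 0.23 ± 0.09, and 0.13 and 0.07 after quantile normalization. Abca1 passed in 2 of 13 fits that left out an array and Abcg1 in 6 of 13. Cyp46a1, the neuronal hydroxylase that starts the export of cholesterol from the brain, had 0.34 ± 0.14 (adjusted p = 0.0688 in limma), and 0.11 ± 0.15 after quantile normalization, and its low-fat arrays alone spread from 9.32 to 10.12. Nr1h2, the liver X receptor that drives Abca1 and Abcg1 when oxysterols are high, had 0.04, and -0.07 after quantile normalization.

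**Figure D3:**
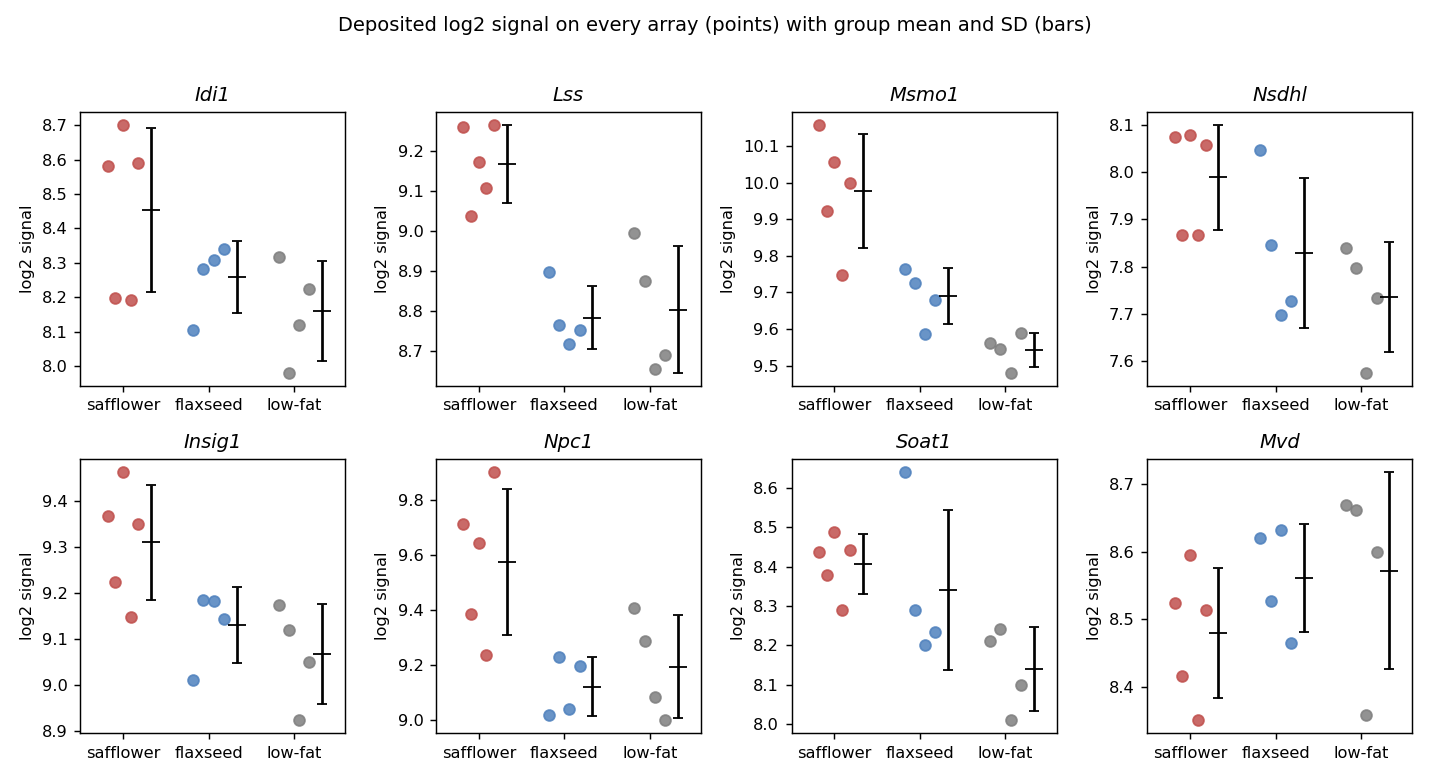
Deposited log2 signal of 8 genes on every array (points, red for safflower, blue for flaxseed, grey for low-fat), with the group mean and SD as bars, and a separate vertical scale for each gene that does not start at 0. Every safflower point of Lss lies above all flaxseed and low-fat points, every safflower point of Msmo1, Nsdhl and Soat1 lies above all low-fat points, and the groups of Mvd overlap.

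Groups that did not overlap were counted as a check that does not use the fit. Safflower was above low-fat on every array for 6 of the 29 genes with deposited values (Sqle, Lss, Msmo1, Nsdhl, Sc5d and Soat1), where 13.5% of all genes were, and for 2 after quantile normalization (Nsdhl and Soat1), where 10% of all genes were. These are 20.7% and 6.90% of the sterol genes, and the separation of Soat1 after quantile normalization was a near-tie.

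Between the oils at equal fat content, 0 of the 29 genes passed, with deposited or quantile-normalized values, where 0% of all genes passed (limma). The smallest adjusted p of the sterol genes was 0.246, and 9 had an unadjusted p under 0.05 with deposited values, where 15.5% of all genes did, and 6 after quantile normalization, where 8.77% did. Their direction was mostly the same: 26 of 29 changes were positive with deposited values, where 50.8% of all genes were, and 25 after quantile normalization, where 57.2% were. The median was 0.15 against 0.00 for all genes, and 0.09 against 0.02 after quantile normalization. The change between the oils also ran with signal, and 15 of the 29 genes were in bins 8 to 10. Over all genes its median with deposited values was -0.10 in bin 1 and 0.11 in bin 10. After quantile normalization these were 0.01 and 0.07, with 0.009 to 0.024 in bins 2 to 9. The comparison with all genes thus sets mostly bright genes against genes of all signals, and the part of signal in it was not tested. Genes are not independent replicates, and the neuron and oligodendrocyte markers described below also had positive changes between the oils. HF-SD 4 was the lowest safflower array for 22 of the 29 genes and for 43.6% of all genes, and HF-FD 1 was the highest flaxseed array for 18 and for 50.4%.

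With deposited values the widest differences between the oils were in Npc1, Lss and Msmo1. For Npc1 the difference was 0.45 (95% interval 0.20 to 0.71), for Lss 0.38 (0.22 to 0.55) and for Msmo1 0.29 (0.13 to 0.45). After quantile normalization they were 0.39, 0.33 and 0.22, and Hsd17b7, at 0.34 (0.27 with deposited values), was then second to Npc1. Safflower and flaxseed arrays did not overlap for Lss and Npc1, where 2.2% of all genes were higher without overlap, and after quantile normalization for Lss alone, where 1.83% were. The lowest safflower array of Npc1, at 9.24, was just above the highest flaxseed array, at 9.23. With weights that limma estimated for each array, 20 of the 29 were higher in safflower than in flaxseed, where 18.3% of all genes were. The weights were uneven, from 0.24 for LF-CD 3 to 3.81 for HF-FD 2. HF-FD 1, 3 and 4 had 0.39, 0.96 and 0.99, so the weighted flaxseed mean rests mostly on HF-FD 2. Without HF-SD 4, 4 genes passed between the oils with deposited values: Fdft1, Lss, Msmo1 and Npc1, where 77 of 16033 genes were higher and 13 lower. The median half-width of the intervals, which are not adjusted for the number of genes, was 0.18, and larger differences than this also did not pass. Mvd, Pmvk and Tm7sf2 had differences of -0.08, -0.02 and -0.02, and -0.10, -0.04 and -0.01 after quantile normalization.

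Between flaxseed and low-fat, 0 of the 29 genes passed and 0% of all genes did (limma). The smallest adjusted p of the sterol genes was 0.208, and 2 had an unadjusted p under 0.05 with deposited values, Sc5d (0.19, and -0.03 after quantile normalization) and Soat1 (0.20 and 0.18), where 20.1% of all genes did. After quantile normalization 0 did, where 12.7% of all genes did. The 29 changes ran from -0.07 to 0.20, with a median of 0.05 for both the sterol genes and all genes. Of them 20 were positive where 62.3% of all genes were, and after quantile normalization 11 were positive where 53% were, with a median of -0.03. No gene separated the groups on every array, where 5.88% of all genes were higher without overlap. The median half-width of the 95% interval was 0.19, so changes smaller than this were not detectable in most genes. The interval is not adjusted for the number of genes tested, so larger changes could be missed too. This comparison and that of safflower with low-fat share the low-fat arrays.

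For any difference among the diets, the F test called 9 of the 29 with deposited values (Fdft1, Sqle, Lss, Cyp51, Msmo1, Ebp, Sc5d, Insig1 and Npc1), where 25.3% of all genes were called, and 1 after quantile normalization (Lss, adjusted p = 0.0469 in limma), where 4.24% were.

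**Figure D4:**
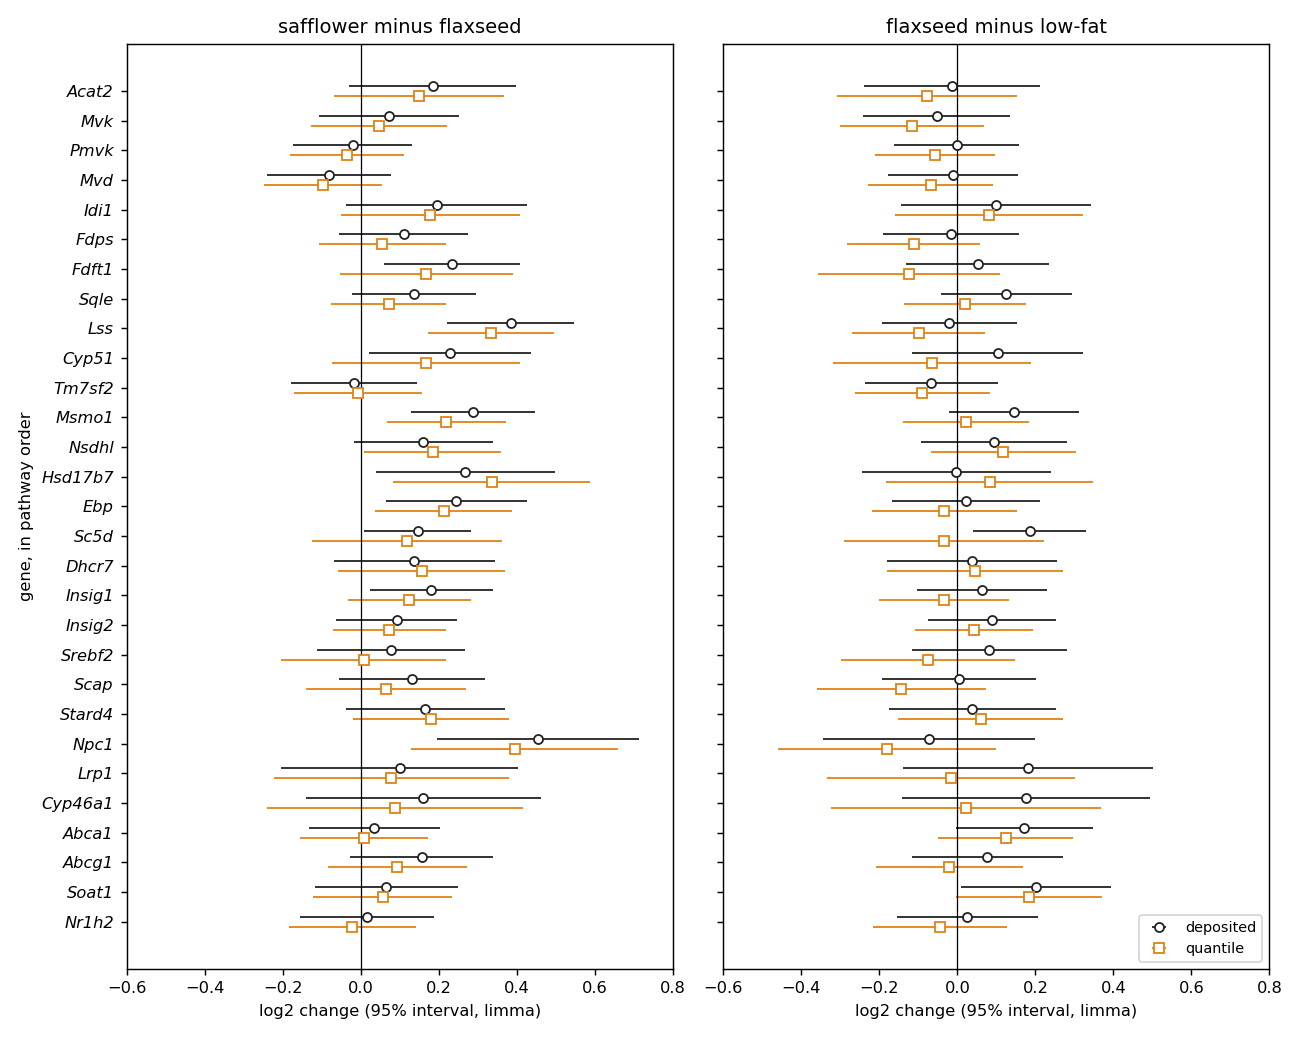
Log2 change of each of the 29 genes with its 95% interval from limma, safflower minus flaxseed on the left and flaxseed minus low-fat on the right, for deposited values (black circles) and quantile-normalized values (orange squares), with genes from the top in pathway order. None had an adjusted p under 0.05. In the left panel 26 of 29 black symbols lie right of 0, and in the right panel the symbols lie close to 0 on both sides.

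The early and late arms of synthesis were also set against each other within each array, which removes any shift that both arms share. The mean log2 signal of the 8 late genes minus that of the 6 measured mevalonate genes was 0.20, 0.21, 0.16, 0.19 and 0.20 on the safflower arrays, 0.16, 0.09, -0.01 and 0.10 on the flaxseed arrays, and -0.02, 0.05, 0.04 and 0.01 on the low-fat arrays. Only its change across arrays can be read, since probes of different genes share no scale. The means were 0.19 ± 0.02 (SD, n = 5) in safflower, 0.09 ± 0.07 (n = 4) in flaxseed and 0.02 ± 0.03 (n = 4) in low-fat.

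After quantile normalization the same difference was 0.22, 0.21, 0.20, 0.17 and 0.22 in safflower, 0.19, 0.08, -0.04 and 0.08 in flaxseed, and 0.02, 0.06, 0.00 and -0.02 in low-fat. Safflower was above low-fat on every array with both scalings, LF-CD 3 and HF-SD 4 included. Safflower was above flaxseed on every array with deposited values, but only by a near-tie, with 0.1628 on HF-SD 3 and 0.1607 on HF-FD 1. After quantile normalization HF-FD 1 reached the safflower range. The genes and arms were chosen with earlier results of these data known, so this is a description and carries no test. The mevalonate genes were in signal bins 6 to 8 and the late genes in bins 2 to 10.

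**Figure D5:**
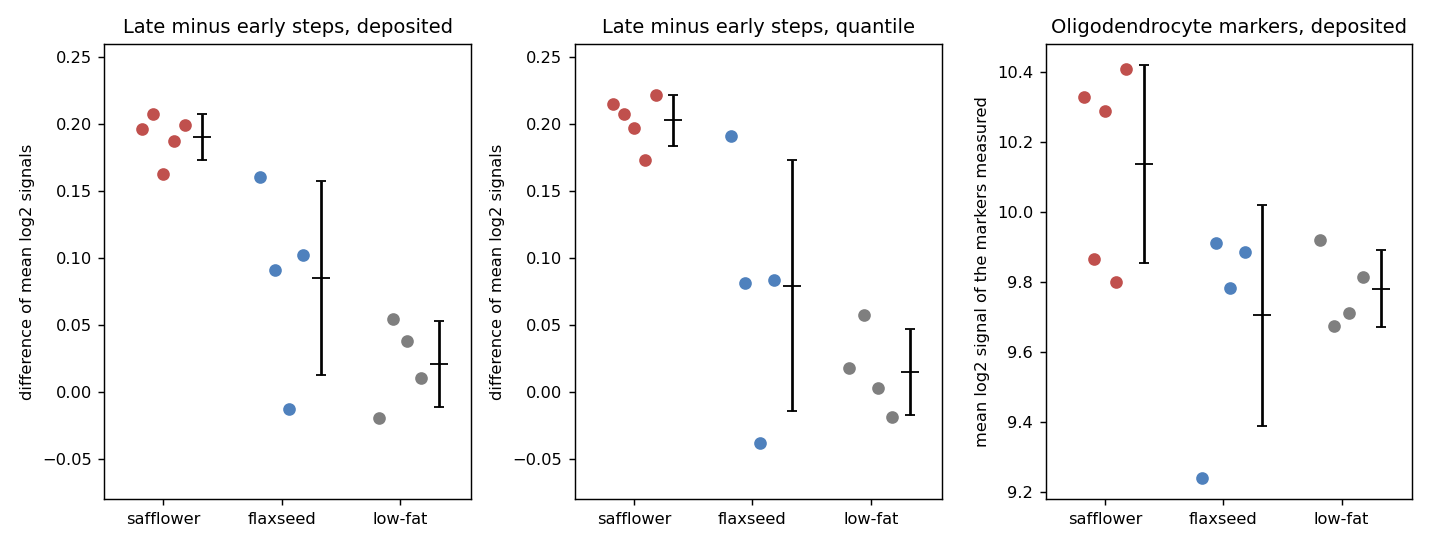
Left and middle: mean log2 signal of the 8 late genes minus that of the 6 mevalonate genes on each array, with deposited and with quantile-normalized values. Right: mean deposited log2 signal of the oligodendrocyte markers on each array. Points are arrays (red safflower, blue flaxseed, grey low-fat), and bars are the group mean and SD. All safflower points of the left and middle panels lie above all low-fat points, while the right panel shows 3 safflower arrays at 10.29 to 10.41 and the other 2 within the low-fat range.

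Markers of the cells that make and use cholesterol were set beside these results, against the shares of all genes given above (22.9% higher with deposited values and 10.1% after quantile normalization, with 60.8% and 58.5% of changes positive). The mean log2 signal of the oligodendrocyte markers was 9.80 to 10.41 on safflower arrays, 9.24 to 9.91 on flaxseed arrays and 9.67 to 9.92 on low-fat arrays. All 11 measured markers had a positive safflower-to-low-fat change with both scalings, 1 passed with deposited values and 0 after quantile normalization, and the median change was 0.38 and 0.15. Of 13 neuron markers, 10 (76.9%) were higher in safflower with deposited values and 0 after quantile normalization, with median changes of 0.39 and 0.20. Their mean was 10.88 to 11.30 in safflower, 10.83 to 10.89 in flaxseed and 10.59 to 10.97 in low-fat. Of 10 astrocyte markers, 3 were higher with deposited values and 0 after quantile normalization, with median changes of 0.16 and -0.01, and 10 and 4 changes were positive. Their mean was 10.03 to 10.31 in safflower, 10.07 to 10.30 in flaxseed and 9.85 to 10.12 in low-fat. From flaxseed to safflower, all 11 oligodendrocyte and all 13 neuron markers had a positive change with both scalings, and none passed. The medians were 0.46 and 0.29 with deposited values, and 0.51 and 0.34 after quantile normalization. Of 10 astrocyte markers 10 and 6 were positive, of 8 microglia markers 3 and 1, and of 15 hypothalamic markers 3 and 3.

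Within safflower, arrays 1, 3 and 5, on which Idi1, Hsd17b7 and Npc1 were highest, had oligodendrocyte means of 10.33, 10.29 and 10.41, and arrays 2 and 4 had 9.86 and 9.80. The mean of the hypothalamic markers was 8.80, 9.0008 and 8.86 on the first 3 and 9.28 and 9.20 on arrays 2 and 4, against 9.19 to 9.32 in flaxseed and 9.03 to 9.28 in low-fat. Within flaxseed, HF-FD 1 had the lowest oligodendrocyte mean, 9.24 against 9.78 to 9.91. Its deposited mean over the sterol genes was the highest of that diet, 8.999 against 8.87 to 8.92. It was the highest flaxseed array for 18 sterol genes and the lowest for 4. Idi1 and Npc1 were lowest of that diet on HF-FD 1, at 8.10 and 9.02, and Hsd17b7, at 7.06, was not. Of the 15 hypothalamic markers, 4 (26.7%) were lower in safflower than in low-fat with deposited values and 2 (13.3%) after quantile normalization. The shares of all genes called lower were 16.9% and 4.37%, which also stand against the lower counts that follow. Of 8 microglia markers 1 was higher and 0 lower with deposited values, with a median change of 0.04, and 0 passed after quantile normalization, with -0.04. Their mean was 8.73 to 8.92 in safflower, 8.70 to 9.004 in flaxseed and 8.59 to 8.87 in low-fat. Of 8 pituitary markers 4 were below the signal floor. All 4 that were tested had a negative safflower-to-low-fat change with both scalings, 2 were lower with deposited values and 0 after quantile normalization, and the medians were -0.32 and -0.19. The mean of the 8 was 6.16 to 6.75 in safflower, 6.80 to 6.96 in flaxseed and 6.71 to 7.03 in low-fat. Of 8 skeletal muscle markers 6 were lower in safflower than in low-fat with deposited values and 2 after quantile normalization, with medians of -0.79 and -0.78, and their mean was 7.36 to 7.51 in safflower, 7.41 to 7.62 in flaxseed and 7.70 to 9.64 in low-fat. The part of cell makeup or dissection in the sterol gene values was not tested.

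A further list of 47 sterol genes outside the set, covering SREBP cleavage, lipoproteins, sterol carriers and oxysterol metabolism, was set beside it. Of 41 tested, 13 (31.7%) were higher and 1 lower in safflower than in low-fat with deposited values, where 22.9% of all genes were higher and 16.9% lower. After quantile normalization 6 (14.6%) were higher and 0 lower, where 10.1% and 4.37% of all genes were. The median changes were 0.11 and 0.07, against 0.07 and 0.04 for all genes. The 4 of smallest p passed with both scalings. Mbtps2, the protease that makes the final cut of SREBP2, had 0.40 ± 0.07 (adjusted p = 0.00379 in limma), and 0.38 after quantile normalization. Ggps1, which draws farnesyl diphosphate off to geranylgeranyl diphosphate, had 0.46 and 0.63. Cyp7b1, an oxysterol hydroxylase, had 0.42 and 0.38, and Gramd1b, which moves cholesterol from the plasma membrane to the endoplasmic reticulum, had 0.30 and 0.19. The gene called lower, Star, the mitochondrial cholesterol importer, had -0.16, and 0.05 after quantile normalization. Of the 41, 0 passed between flaxseed and low-fat (limma, 3 with an unadjusted p under 0.05) and 0 between the oils (8 with an unadjusted p under 0.05).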

How the data were processed

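Total RNA of the hypothalamus (100 ng per array) was measured on 13 Affymetrix arrays. The deposited table holds a log2 signal per array for 70580 transcript clusters, which the authors made with RMA in Affymetrix Expression Console, per the submitters' processing notes, which also name Transcriptome Analysis Console. No cluster position is printed, the build being not given in the sources used here. Those values were not normalized again, and quantile-normalized values (limma's normalizeBetweenArrays) were fitted beside them. Genes were rows with a single symbol, the row of highest mean where several, and genes were tested if their mean reached 6.58, the median over rows. Group means of the 3 diets were fitted with limma (version 3.58.1, R version 4.3.3) as a linear model with moderated variances (10 residual degrees of freedom, two-sided), with Benjamini-Hochberg adjustment over 16033 genes and a threshold of 0.05. No 2 arrays were identical (r within groups 0.954 to 0.995). On simulated data for the safflower-to-low-fat comparison, with 100 of 16033 genes changed at each size, 27% of log2 changes of 0.3 and 87% of log2 changes of 0.6 were recovered. The simulated noise was independent between genes. In the real comparison 3675 genes were higher and 2702 lower, which makes the adjusted threshold less strict. These rates therefore do not give the sensitivity of the real comparison.

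Every listed gene was named. Values on each array were given for genes past the threshold with both scalings and for the gene of smallest p in each role group, and for others where stated. Of the further sterol genes the 4 of smallest p were named. The genes, lists and arms were chosen with earlier results of these data known. Alternatives were quantile, cyclic loess and median scaling, no signal floor, the mean of a gene's rows, a replicate block, array weights and leaving out each array. The number of arrays limits the precision, with a median SE of 0.084 for the sterol genes in both safflower comparisons.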

Additional observations from a re-analysis of the deposited data

Results flagged for a closer look

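A value was marked here where the highest or lowest array of a diet lay far from the others of that diet, by Dixon's criterion, which marks about 1 in 20 groups by chance. Of 108 groups examined 3 were marked, where 5.4 would be by chance. Fdft1, squalene synthase, had a deposited log2 signal of 9.95 on HF-SD 4, against 10.26 to 10.37 on the other safflower arrays. Its safflower-to-low-fat change of 0.29 passed in all 13 fits that left out an array. Hsd17b7 had a log2 signal of 6.94 on HF-FD 3, against 7.05 to 7.07 on the other flaxseed arrays. The mean log2 signal of the skeletal muscle markers was 9.64 on LF-CD 3, against 7.70 to 7.96 on the other low-fat arrays. The part of this array's makeup in the sterol gene results was not tested, and the counts without it stand beside the safflower-to-low-fat result and below.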

How the results depend on the processing

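The count of 14 genes higher in safflower than in low-fat was 3 after quantile normalization (10.1% of all genes), 4 after cyclic loess (13.1%), 22 after median centring (36.4%) and 9 with the replicate block (16.7%), against 22.9% of all genes with deposited values, and 7 to 17 when single arrays were left out. The 0 lower became 1 after cyclic loess (Mvd, where 6.19% of all genes were lower). After quantile normalization, leaving out arrays gave 0 to 5 higher and 0 to 1 lower. Between the oils, the 0 higher became 20 with array weights (18.3% of all genes), and 0 to 4 when single arrays were left out (0% to 0.48%). The F test's count of 9 (25.3% of all genes) was 1 after quantile normalization (4.24%), 3 after cyclic loess (7.93%), 15 after median centring (38.8%), 0 with the replicate block (0%) and 19 with array weights (61.5%). It was 3 to 11 without single arrays (9.17% to 28.9%). The causes were not tested. For flaxseed against low-fat, no alternative run called any of the 29 genes, while array weights called 29.4% of all genes. No called change reversed its sign. Median centring moved the median change of all genes from safflower to low-fat to 0.12, against 0.07 with deposited values.

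Labels number the replicates within each diet. The 12 same-numbered pairs had correlations of their deviations from -0.264 to 0.433, and 4 of 13 arrays correlated best with their own number. The correlations were 0.195 to 0.433 for number 1 and 0.195 to 0.352 for number 4. They were -0.152 to 0.176 for number 2 and -0.264 to -0.083 for number 3. No pairing was seen over all numbers, but so few pairs cannot exclude one. HF-SD 5 has no partner and adds nothing to the diet contrasts of the block fit, which thus rests on 12 arrays. The number of arrays sets the limit: the median 95% interval of a sterol gene reached 0.18 in log2 to either side in the safflower comparisons.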
